A study of Mus musculus with 12 samples.

Results

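The genes described here are the 4 adaptors of the Toll-like receptors (TLRs), Myd88, Tirap, Ticam1 and Ticam2, the 4 interleukin-1 receptor-associated kinases, Irak1, Irak2, Irak3 and Irak4, the ubiquitin ligase Traf6 and the inhibitor Tollip. They were chosen by name, and all 10 were found among the 43131 genes of the deposited count table. They filled 25 transcript rows, of which the row with the highest total was taken for each gene.

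A TLR or an interleukin-1 family receptor signals through adaptors that share its TIR domain. MyD88, bridged to TLR2 and TLR4 by TIRAP, collects IRAK4, which activates IRAK1 and IRAK2, and these kinases engage TRAF6 and lead to NF-kB and MAP kinase signalling. TRIF, the product of Ticam1, is bridged to TLR4 by TRAM, the product of Ticam2, and leads to type I interferon. IRAK-M, the product of Irak3, and TOLLIP are known as brakes on this pathway, and IRAK-M is largely made by macrophages and monocytes.

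Bone marrow-derived macrophages (BMDMs) of C57BL/6 mice were grown with M-CSF at 50 ng/mL over 7 days. The tlr4f/f mice carry loxP sites on both copies of tlr4 and were the controls. The tlr4f/f-lysM-cre mice carry the same loxP sites and a cre driven by the lysozyme M promoter, which is active in myeloid cells. BMDMs of each genotype were left untreated (LPS-) or received 1 µg/mL of lipopolysaccharide for 6 h (LPS+), and each of the 4 groups had 3 libraries. The labels do not say whether the 3 libraries came from separate mice or cultures, although the study calls them independent, so the p-values measure only the spread between these libraries, which may be technical. The libraries held 33577087 to 56445268 counts over all genes, with a median of 45330681. The biological coefficient of variation was 37.2% in LPS- tlr4f/f, 34.9% in LPS- tlr4f/f-lysM-cre, 8.55% in LPS+ tlr4f/f and 8.75% in LPS+ tlr4f/f-lysM-cre, so differences between the LPS+ columns were measured far more closely.

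The counts of 3 genes went against the headings of the columns. Tlr4, the targeted gene, had 76.7, 147 and 121 CPM (library-scaled read counts, normalized by TMM) in LPS- tlr4f/f and 117, 95.1 and 116 CPM in LPS- tlr4f/f-lysM-cre, with a log2 fold change between them of -0.07 ± 0.254 (SE, edgeR adjusted p = 0.849). It had 24.3 to 31.1 CPM in LPS+ tlr4f/f and 24.6 to 27.5 CPM in LPS+ tlr4f/f-lysM-cre. Il1b, a cytokine gene induced by LPS, lay between 0.0748 and 6.93 CPM in LPS- tlr4f/f and between 2.68 and 3.58 CPM in LPS+ tlr4f/f, but between 1640 and 8220 CPM in LPS- tlr4f/f-lysM-cre and between 2498 and 2687 CPM in LPS+ tlr4f/f-lysM-cre. When these headings are exchanged, Il1b is higher with LPS in both genotypes, by 9.66 ± 0.106 on the log2 scale in tlr4f/f-lysM-cre, the genotype with the deletion. Lyz2, the gene of lysozyme M, lay between 5950 and 23264 CPM in both LPS- groups and between 10.4 and 75.6 CPM in both LPS+ groups. Under the exchange, Tlr4 in tlr4f/f-lysM-cre against tlr4f/f is at -2.02 ± 0.246 (log2, adjusted p = 0.0402) without LPS. With LPS it is at -2.09 ± 0.134 (adjusted p = 0.000937). Lyz2 is then at -10.1 ± 0.696 (adjusted p = 0.0224) without LPS and at -6.92 ± 0.279 (adjusted p = 0.000255) with LPS. The heading LPS- tlr4f/f-lysM-cre may therefore be exchanged with the heading LPS+ tlr4f/f, and the groups are named below as the columns are headed, with the meaning of each contrast in both readings.

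Each comparison has 1 meaning as headed and another under the exchange. The contrast of the LPS- columns (LPS- tlr4f/f-lysM-cre against LPS- tlr4f/f) is the effect of the deletion in untreated BMDMs as headed, and the effect of LPS in tlr4f/f BMDMs when exchanged. The contrast of the LPS+ columns (LPS+ tlr4f/f-lysM-cre against LPS+ tlr4f/f) is the effect of the deletion under LPS as headed, and the effect of LPS in tlr4f/f-lysM-cre BMDMs when exchanged. The contrast of the tlr4f/f columns (LPS+ against LPS-) is the effect of LPS in tlr4f/f as headed, and the effect of the deletion in untreated BMDMs when exchanged. The contrast of the tlr4f/f-lysM-cre columns (LPS+ against LPS-) is the effect of LPS in tlr4f/f-lysM-cre as headed, and the effect of the deletion under LPS when exchanged. The interaction of genotype and LPS is the same number in both readings. The first 2 contrasts share no library with each other, and each shares a group with both of the others.

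A gene was called a differentially expressed gene (DEG) when it changed more than 2-fold with an adjusted p under 0.01 in the quasi-likelihood test of edgeR over all genes tested. In the contrast of the LPS- columns 4 of the 10 genes were DEGs, Irak3, Irak2, Myd88 and Ticam2, all higher in LPS- tlr4f/f-lysM-cre, where 17.1% of all genes tested were DEGs in either direction and 9.25% in this direction. Those 2497 DEGs numbered 1038 to 1682 without any 1 of the 6 libraries, 3993 with DESeq2 and 4251 in a single fit on all 12 libraries. In the contrast of the LPS+ columns 5 of the 10 were DEGs, the same 4 genes and Ticam1, again all higher, where 21.7% of all genes were DEGs and 10.8% in this direction. In the single fit 3 of the 10 were DEGs there, since Ticam1 (log2 fold change 1.08, adjusted p = 0.0113) and Ticam2 (1.18, adjusted p = 0.01) no longer met the criteria, and all DEGs went from 3161 to 2045. In the contrast of the tlr4f/f columns none of the 10 was a DEG, and neither was any of the 14701 genes tested with edgeR, beside 464 genes with DESeq2, 54 with voom and 184 with edgeR when the third LPS- tlr4f/f library was left out. In the contrast of the tlr4f/f-lysM-cre columns none of the 10 was a DEG, where 6.08% of all genes were. Those 865 genes fell to 4, 7 and 15 when the first, the second or the third LPS+ tlr4f/f-lysM-cre library was left out. DESeq2 called 2002 genes in this contrast. The median log2 fold change of the 10 genes was 0.92 in the LPS- columns and 1.02 in the LPS+ columns, beside medians of -0.08 and -0.02 over all genes tested. It was -0.06 in the tlr4f/f columns and -0.22 in the tlr4f/f-lysM-cre columns, beside -0.03 and 0.03 over all genes. RNA was measured in bulk, so fewer cells of a type and less RNA per cell cannot be told apart in any of these values.

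**Figure D1:**
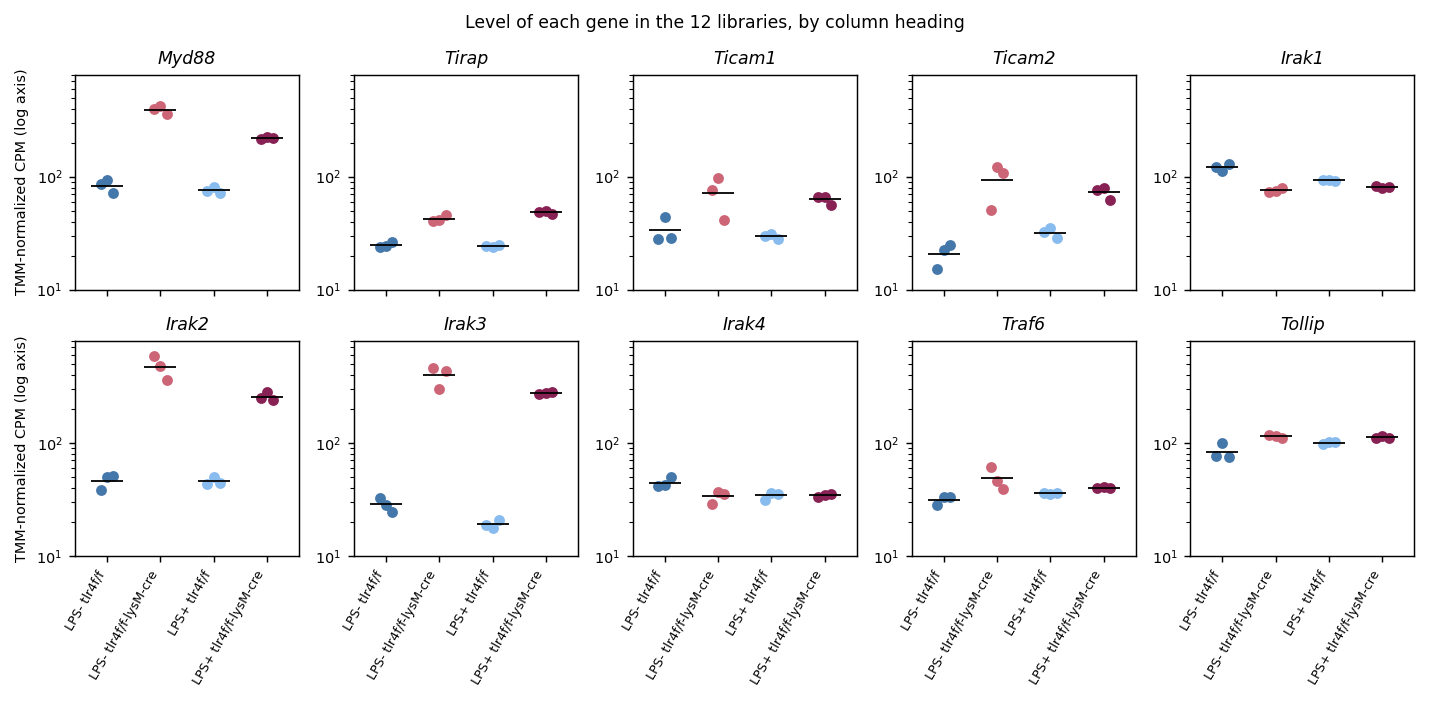
TMM-normalized CPM of each gene on a log axis, with 1 point for each of the 12 libraries (3 per column heading) and a line at the group mean. Myd88, Irak2 and Irak3 sit far higher in both tlr4f/f-lysM-cre columns than in both tlr4f/f columns, while Irak4 stays between 28.7 and 49.3 CPM in all 12 libraries.

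Promoter windows of RefSeq (build GRCm38.p6, 250 bases before to 50 bases from the transcription start) were matched for 9 of the 10 genes, in 12 windows. The table held no window for Ticam2. The windows of the 3 genes with the largest differences, Myd88, Irak2 and Irak3, are shown because these genes moved together, with that of Irak1 as the gene with the largest difference the other way. Myd88 is read on the minus strand of chr9:119339969-119340268, Irak2 on the plus strand of chr6:113638217-113638516 and Irak1 on the minus strand of chrX:74023872-74024171. Irak1 has a second start close by, whose window chrX:74023869-74024168 is not shown. Irak3 has 2 starts on the minus strand, with the windows chr10:120202081-120202380 (outer) and chr10:120201548-120201847 (inner). Capitals mark every match to 1 of 6 motifs searched on both strands, an NF-kB site (GGGA and TTCC with any 2 bases between), an interferon response element (GAAA and GAAA with any 2 bases between), an AP-1 site (TGANTCA), a PU.1 core (GAGGAA), a GC box (GGGCGG) and a TATA box (TATAAA).
Myd88: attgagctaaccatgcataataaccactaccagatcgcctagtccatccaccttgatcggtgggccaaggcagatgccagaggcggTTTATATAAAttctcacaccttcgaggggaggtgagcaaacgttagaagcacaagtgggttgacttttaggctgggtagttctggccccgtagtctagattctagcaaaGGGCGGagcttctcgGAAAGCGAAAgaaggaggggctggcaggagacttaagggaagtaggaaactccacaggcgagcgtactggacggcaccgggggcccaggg
Irak2: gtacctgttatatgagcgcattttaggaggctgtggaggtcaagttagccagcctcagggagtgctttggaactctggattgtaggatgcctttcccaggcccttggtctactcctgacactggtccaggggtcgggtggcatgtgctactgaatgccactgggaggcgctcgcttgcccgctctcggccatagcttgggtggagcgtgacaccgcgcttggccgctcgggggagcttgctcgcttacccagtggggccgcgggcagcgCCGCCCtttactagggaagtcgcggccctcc
Irak3 outer: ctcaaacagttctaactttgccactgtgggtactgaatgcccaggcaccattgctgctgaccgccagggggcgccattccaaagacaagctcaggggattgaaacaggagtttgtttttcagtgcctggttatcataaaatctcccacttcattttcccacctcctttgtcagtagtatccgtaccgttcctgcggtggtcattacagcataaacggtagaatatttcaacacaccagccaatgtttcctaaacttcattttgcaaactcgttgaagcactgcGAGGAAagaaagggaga
Irak3 inner: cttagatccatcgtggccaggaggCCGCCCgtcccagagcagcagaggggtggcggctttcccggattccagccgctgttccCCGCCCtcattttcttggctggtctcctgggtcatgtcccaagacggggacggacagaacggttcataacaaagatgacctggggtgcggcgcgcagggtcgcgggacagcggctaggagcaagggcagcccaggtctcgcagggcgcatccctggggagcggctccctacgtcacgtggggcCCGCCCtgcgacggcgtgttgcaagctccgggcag
Irak1: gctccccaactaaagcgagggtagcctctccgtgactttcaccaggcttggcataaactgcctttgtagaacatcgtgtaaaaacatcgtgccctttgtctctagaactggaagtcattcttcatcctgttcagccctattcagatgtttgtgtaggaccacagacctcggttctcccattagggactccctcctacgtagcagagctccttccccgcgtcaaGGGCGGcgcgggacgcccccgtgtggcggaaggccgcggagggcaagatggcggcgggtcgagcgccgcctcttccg

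The letters of the interferon response element occurred in 1 of the 9 genes searched, Myd88, where GAAAGCGAAA began 40 bases before the start, and in 3.44% of the 32851 mouse windows of this length. Myd88 was also the only one of the 9 genes with the TATA letters, at -160, overlapping a match on the other strand at -164, and 13.6% of all windows held them. A GC box stood in 11 of the 12 windows and in all 9 genes, beside 35.7% of all windows. The second Irak1 window, not shown, held a further GC box at 44. The window without one was the outer window of Irak3, whose only match was a PU.1 core at 33, and the inner window held 3 GC boxes. The PU.1 core also occurred in Ticam1 and Traf6 and in 28.3% of all windows. The NF-kB letters, present in 1.47% of all windows, and the AP-1 letters, present in 7.81%, occurred in none of the 12. These are matches of letters in short windows and not measured sites.

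Myd88, the adaptor of all TLRs but TLR3 and of the interleukin-1 receptors, lies on chromosome 9 (119335934 to 119341411, minus strand, GRCm38). It had 85.9, 93.5 and 70.9 CPM in LPS- tlr4f/f and 393, 426 and 356 CPM in LPS- tlr4f/f-lysM-cre. The LPS+ tlr4f/f libraries had 74.5, 81.0 and 71.0 CPM and the LPS+ tlr4f/f-lysM-cre libraries 216, 225 and 221 CPM. All 6 libraries of the tlr4f/f-lysM-cre columns were above all 6 of the tlr4f/f columns, and the 2 tlr4f/f-lysM-cre groups did not overlap each other either. In the LPS- columns Myd88 was 4.66-fold higher (log2 fold change 2.22 ± 0.174 SE, adjusted p = 0.000640), and in the LPS+ columns 2.91-fold higher (1.54 ± 0.0580, adjusted p = 2.69e-10). As headed, Myd88 was thus higher in tlr4f/f-lysM-cre BMDMs with and without LPS, and when exchanged LPS raised it in both genotypes. In the tlr4f/f-lysM-cre columns Myd88 fell by 0.82 on the log2 scale (SE 0.104, adjusted p = 0.00368), short of a 2-fold change. That is a fall under LPS in tlr4f/f-lysM-cre as headed, and a lower level in tlr4f/f-lysM-cre than in tlr4f/f under LPS when exchanged. In the tlr4f/f columns its 95% interval, -0.43 to 0.18, included 0.

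Tirap, the bridge between MyD88 and TLR2 or TLR4, lies on chromosome 9 (35184551 to 35200291, minus strand). It had 23.8, 24.4 and 26.3 CPM in LPS- tlr4f/f, 40.1, 41.0 and 45.5 CPM in LPS- tlr4f/f-lysM-cre, 24.4, 23.9 and 25.1 CPM in LPS+ tlr4f/f and 48.7, 49.8 and 46.5 CPM in LPS+ tlr4f/f-lysM-cre. The 6 libraries of the tlr4f/f columns lay below the 6 of the tlr4f/f-lysM-cre columns. Tirap was 1.69-fold higher in the LPS- columns (log2 fold change 0.76 ± 0.134, adjusted p = 0.00645) and 1.97-fold higher in the LPS+ columns (0.98 ± 0.0587, adjusted p = 2.01e-08), so it passed the p threshold in both and the fold threshold in neither. Without the third LPS+ tlr4f/f-lysM-cre library it was a DEG in the LPS+ columns as well (log2 fold change 1.00, adjusted p = 3.76e-08). Between the tlr4f/f columns the 95% interval of its log2 fold change was -0.20 to 0.20.

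Ticam1, the gene of TRIF, lies on chromosome 17 (56269319 to 56276786, minus strand). It had 28.2, 44.3 and 28.7 CPM in LPS- tlr4f/f, and 76.2, 97.6 and 41.4 CPM in LPS- tlr4f/f-lysM-cre. The third of the latter libraries lay below the second of the former, so these groups overlapped. The log2 fold change in the LPS- columns was 1.07 ± 0.339 (adjusted p = 0.0476), which did not make it a DEG. Its adjusted p rose to between 0.115 and 0.135 without the first or the third LPS- tlr4f/f library or the first or the second LPS- tlr4f/f-lysM-cre library. It was a DEG with DESeq2 (1.16, adjusted p = 0.00737) and in a single edgeR fit on all 12 libraries (1.09, adjusted p = 0.00606). In LPS+ tlr4f/f it had 30.0, 31.1 and 28.2 CPM and in LPS+ tlr4f/f-lysM-cre 66.3, 66.4 and 56.0 CPM, with no overlap. There the log2 fold change was again 1.07, with an SE of 0.0734 (adjusted p = 6.65e-08), and Ticam1 was a DEG, though not in that single fit (adjusted p = 0.0113). The interaction was -0.01 with a 95% interval of -0.85 to 0.83.

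Ticam2, the gene of TRAM, lies on chromosome 18 (46557291 to 46574533, minus strand). It had 15.1, 22.4 and 25.0 CPM in LPS- tlr4f/f and 50.5, 122 and 107 CPM in LPS- tlr4f/f-lysM-cre, a 4.44-fold difference (log2 fold change 2.15 ± 0.367, adjusted p = 0.00592). It had 32.1, 35.0 and 28.8 CPM in LPS+ tlr4f/f and 76.5, 79.7 and 61.6 CPM in LPS+ tlr4f/f-lysM-cre, a 2.26-fold difference (1.18 ± 0.105, adjusted p = 9.95e-06, a call lost in the single fit on all libraries). The call in the LPS- columns rested on few libraries. Without any 1 of the 3 LPS- tlr4f/f libraries, or without the second or the third LPS- tlr4f/f-lysM-cre library, the adjusted p rose to between 0.0159 and 0.0233, while the log2 fold change stayed between 1.92 and 2.29. Without the first LPS- tlr4f/f-lysM-cre library, the lowest of its group, it was 2.47 (adjusted p = 0.00411). Ticam2 shares 838 exonic bases, 14.5% of its exons, with Tmed7 on the same strand, and reads there cannot be given to 1 of the 2 genes. Tmed7 itself differed by 0.61 ± 0.151 in the LPS- columns and by 0.41 ± 0.0570 in the LPS+ columns on the log2 scale, less than Ticam2 in each.

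Summed per kilobase of transcript, the 4 adaptors had 67.3 ± 8.39 CPM/kb in LPS- tlr4f/f, 268 ± 31.6 in LPS- tlr4f/f-lysM-cre, 65.1 ± 3.96 in LPS+ tlr4f/f and 171 ± 6.08 in LPS+ tlr4f/f-lysM-cre (mean ± SD, n = 3 for each). Myd88 was the most abundant adaptor per length in every group, with 65.0% ± 4.20 of the adaptor sum in LPS- tlr4f/f, 76.8% ± 3.37 in LPS- tlr4f/f-lysM-cre, 60.9% ± 0.490 in LPS+ tlr4f/f and 68.0% ± 2.20 in LPS+ tlr4f/f-lysM-cre. Tirap made up the smallest mean share of the adaptor sum in each group, from 3.36% ± 0.549 in LPS- tlr4f/f-lysM-cre to 7.95% ± 0.672 in LPS+ tlr4f/f. In LPS- tlr4f/f its range, 6.70% to 9.14%, overlapped that of Ticam2, 7.16% to 12.6%. Myd88 alone had 43.8 CPM/kb in LPS- tlr4f/f, 206 in LPS- tlr4f/f-lysM-cre, 39.6 in LPS+ tlr4f/f and 116 in LPS+ tlr4f/f-lysM-cre, which was most of the difference in the adaptor sum.

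The 4 IRAK genes split into a pair that differed strongly and a pair that differed little or the other way. Irak2, a kinase that sustains signalling after IRAK1, lies on chromosome 6 (113638467 to 113695026, plus strand). It had 38.4, 49.5 and 50.6 CPM in LPS- tlr4f/f and 583, 475 and 358 CPM in LPS- tlr4f/f-lysM-cre. It had 43.3, 49.7 and 44.5 CPM in LPS+ tlr4f/f and 248, 279 and 241 CPM in LPS+ tlr4f/f-lysM-cre. Both tlr4f/f-lysM-cre columns lay above both tlr4f/f columns without overlap. The difference was 10.2-fold in the LPS- columns (log2 fold change 3.34 ± 0.245, adjusted p = 0.000603) and 5.56-fold in the LPS+ columns (2.48 ± 0.0724, adjusted p = 3.04e-11). In the tlr4f/f-lysM-cre columns Irak2 fell by 0.87 on the log2 scale (SE 0.187, adjusted p = 0.0177), and in the tlr4f/f columns its 95% interval was -0.29 to 0.32. Without the third LPS- tlr4f/f-lysM-cre library, the lowest of its group, the fall was 1.05 (adjusted p = 0.00392) and met the DEG criteria. Without any 1 of the 3 LPS+ tlr4f/f-lysM-cre libraries its adjusted p lay between 0.0696 and 0.0887.

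Irak3, the gene of IRAK-M, lies on chromosome 10 (120141648 to 120202130, minus strand) and showed the largest difference of the 10 genes in both contrasts. It had 32.6, 28.1 and 24.6 CPM in LPS- tlr4f/f and 462, 299 and 431 CPM in LPS- tlr4f/f-lysM-cre, a 13.9-fold difference (log2 fold change 3.80 ± 0.252, adjusted p = 0.000478). It had 18.9, 17.5 and 20.7 CPM in LPS+ tlr4f/f and 271, 275 and 283 CPM in LPS+ tlr4f/f-lysM-cre, a 14.4-fold difference (3.85 ± 0.0693, adjusted p = 8.58e-13). Unlike Myd88 and Irak2 it gave nearly equal estimates in both contrasts, with an interaction of 0.05 and a 95% interval of -0.45 to 0.56. The test of that interaction does not set Irak3 apart from the other 2 genes, since no difference between genes was tested. As headed, Irak3 was higher in tlr4f/f-lysM-cre BMDMs in both states, and when exchanged LPS raised it in both genotypes. In the tlr4f/f columns the log2 fold change was -0.56 ± 0.138 (adjusted p = 0.0863) and in the tlr4f/f-lysM-cre columns -0.52 ± 0.187 (adjusted p = 0.0821), with no overlap between the libraries in either, beside 35.5% and 48% of all genes without overlap. The adjusted p was 0.0221 in the former without the third LPS- tlr4f/f library and 0.00608 in the latter without the second LPS- tlr4f/f-lysM-cre library.

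Irak1, the kinase that is degraded after receptor engagement, lies on chromosome X (74013914 to 74023918, minus strand) and was lower in the tlr4f/f-lysM-cre column of both contrasts. It had 122, 112 and 130 CPM in LPS- tlr4f/f, 73.7, 74.0 and 79.4 CPM in LPS- tlr4f/f-lysM-cre, 93.0, 93.8 and 90.8 CPM in LPS+ tlr4f/f and 82.2, 79.1 and 81.3 CPM in LPS+ tlr4f/f-lysM-cre. Both tlr4f/f columns lay above both tlr4f/f-lysM-cre columns without overlap. Irak1 fell by 0.69 on the log2 scale in the LPS- columns (SE 0.132, adjusted p = 0.00842) and by 0.20 in the LPS+ columns (SE 0.0474, adjusted p = 0.00282), neither a 2-fold change. Over the alternative fits its adjusted p in the LPS+ columns reached 0.0966. In the tlr4f/f columns the log2 fold change was -0.37 ± 0.0857 (adjusted p = 0.0762, and 0.0493 without the second and 0.0355 without the third LPS- tlr4f/f library).

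Irak4, the kinase at the top of the cascade, lies on chromosome 15 (94543643 to 94581815, plus strand) and differed little between groups. It had 41.4, 42.3 and 49.3 CPM in LPS- tlr4f/f, 28.7, 36.6 and 35.2 CPM in LPS- tlr4f/f-lysM-cre, 31.5, 36.3 and 35.2 CPM in LPS+ tlr4f/f and 33.2, 34.7 and 35.3 CPM in LPS+ tlr4f/f-lysM-cre. The LPS- tlr4f/f group lay above the other 3, which overlapped one another. The log2 fold change was -0.41 ± 0.153 in the LPS- columns (adjusted p = 0.0750). In the LPS+ columns its 95% interval ran from -0.15 to 0.15.

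Per kilobase of transcript, Irak2 and Irak3 together made up 33.4% ± 2.12 of the IRAK sum in LPS- tlr4f/f and 36.3% ± 0.325 in LPS+ tlr4f/f (mean ± SD, n = 3). In LPS- tlr4f/f-lysM-cre they made up 89.5% ± 2.04 and in LPS+ tlr4f/f-lysM-cre 83.5% ± 0.597. The IRAK sum itself was 69.7 ± 3.63 CPM/kb in LPS- tlr4f/f, 301 ± 45.5 in LPS- tlr4f/f-lysM-cre, 55.8 ± 1.74 in LPS+ tlr4f/f and 198 ± 5.55 in LPS+ tlr4f/f-lysM-cre. Irak1 was the most abundant IRAK per length in both tlr4f/f columns, with 44.1% ± 1.83 and 42.0% ± 1.33 of the sum. In the tlr4f/f-lysM-cre columns its share was 6.45% ± 1.04 in LPS- and 10.3% ± 0.490 in LPS+. Between Irak2 and Irak3 the order per length was not fixed, since Irak2 was the larger in LPS- tlr4f/f-lysM-cre on average (48.8% ± 7.48 against 40.8% ± 7.04) and Irak3 in LPS+ tlr4f/f-lysM-cre (40.4% ± 2.09 against 43.1% ± 1.53), with overlapping ranges in both groups.

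**Figure D2:**
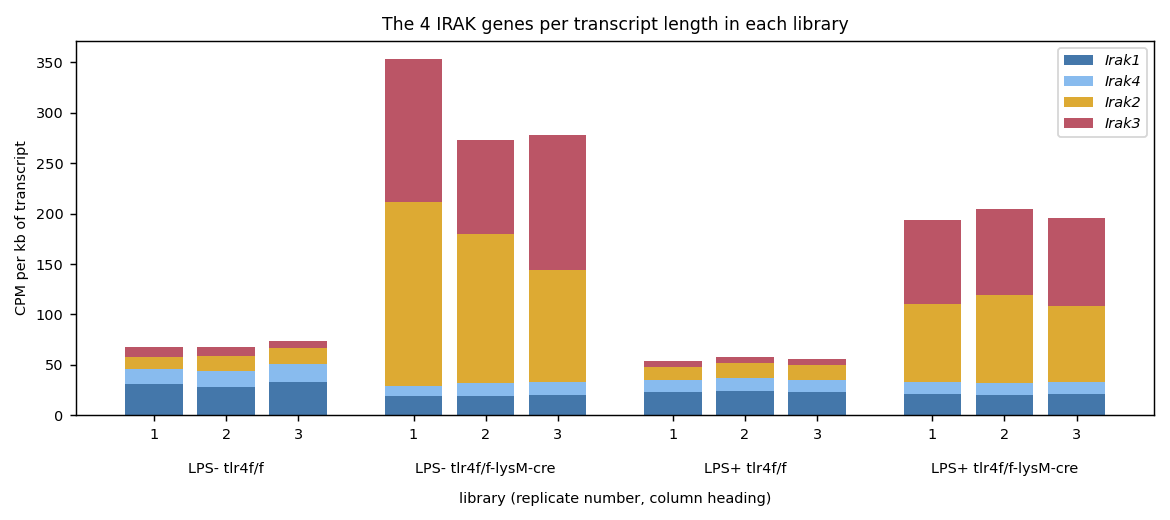
CPM per kilobase of the transcript taken for each IRAK gene, stacked, with 1 bar for each of the 12 libraries. Irak2 and Irak3 make up 31.7% to 36.5% of the bar in the tlr4f/f columns and 83.1% to 91.9% of it in the tlr4f/f-lysM-cre columns.

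Traf6, the ubiquitin ligase that receives the signal from the IRAKs, lies on chromosome 2 (101678429 to 101701669, plus strand). It had 27.9, 33.0 and 33.0 CPM in LPS- tlr4f/f, 61.7, 45.5 and 39.1 CPM in LPS- tlr4f/f-lysM-cre, 36.1, 35.3 and 35.8 CPM in LPS+ tlr4f/f and 39.9, 40.3 and 40.1 CPM in LPS+ tlr4f/f-lysM-cre. Each tlr4f/f-lysM-cre column lay above its tlr4f/f column. The log2 fold change was 0.63 ± 0.201 in the LPS- columns (adjusted p = 0.0475) and 0.16 ± 0.0545 in the LPS+ columns (adjusted p = 0.0223). In the LPS- columns the adjusted p lay between 0.0818 and 0.133 on leaving out any library other than the third LPS- tlr4f/f-lysM-cre library. In the LPS+ columns it was 0.0718 without the third LPS+ tlr4f/f library and 0.0584 without the second LPS+ tlr4f/f-lysM-cre library. Over the other alternative fits it reached 0.432 there. Tollip, which binds the receptors and the IRAKs, lies on chromosome 7 (141874813 to 141918507, minus strand). It had 76.7, 99.0 and 75.3 CPM in LPS- tlr4f/f, 118, 116 and 109 CPM in LPS- tlr4f/f-lysM-cre, 96.5, 101 and 102 CPM in LPS+ tlr4f/f and 110, 115 and 111 CPM in LPS+ tlr4f/f-lysM-cre. Its log2 fold change was 0.44 ± 0.156 in the LPS- columns (adjusted p = 0.0657) and 0.16 ± 0.0490 in the LPS+ columns (adjusted p = 0.0118, and 0.0535 without the second LPS+ tlr4f/f-lysM-cre library). The adjusted p of Tollip in the LPS+ columns reached 0.272 over the other alternative fits. The 2 genes thus changed by less than 2-fold in every contrast, and their libraries never ranged beyond 27.9 to 61.7 CPM for Traf6 and 75.3 to 118 CPM for Tollip.

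**Figure D3:**
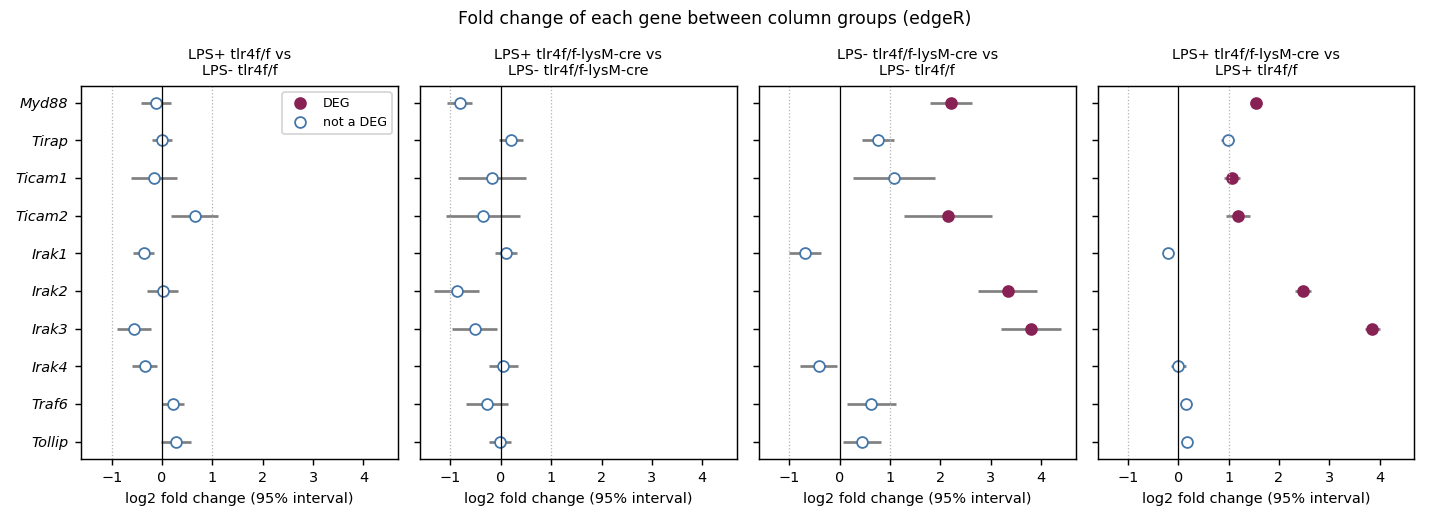
Log2 fold change of each gene in the 4 contrasts of column groups, with its 95% interval from edgeR. Filled points are DEGs, and dotted lines mark a 2-fold change. All DEGs stand in the 2 contrasts of tlr4f/f-lysM-cre against tlr4f/f columns, 4 in the LPS- and 5 in the LPS+ columns.

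At an adjusted p below 0.05 with no fold threshold, 7 of the 10 genes were higher and Irak1 was lower in the contrast of the LPS- columns, where 37.3% of all genes passed, 17.9% higher and 19.4% lower. In the LPS+ columns 8 were higher and Irak1 was lower, where 61.4% of all genes passed, 30.5% higher and 31% lower, and only Irak4 did not pass. Over the alternative fits the adjusted p there reached 0.432 for Traf6, 0.272 for Tollip and 0.0966 for Irak1. For the other genes that passed it stayed at 0.0113 or below. In the tlr4f/f-lysM-cre columns Myd88 and Irak2 passed, both lower, where 26.7% of all genes passed, 14.2% lower. There Ticam2 passed without the first LPS- tlr4f/f-lysM-cre library (-0.67, adjusted p = 0.0226, beside 0.439 with it) and Irak3 without the second (-0.69, adjusted p = 0.00608, beside 0.0821). In the tlr4f/f columns none passed, where 1.27% of all genes did. Without the third LPS- tlr4f/f library Ticam2 (log2 fold change 0.79, adjusted p = 0.0468) and Irak3 (-0.65, adjusted p = 0.0221) passed there, and Irak1 passed without the second or the third. In the tlr4f/f columns 4 of the 10 genes had an unadjusted p below 0.05, Ticam2 higher and Irak1, Irak3 and Irak4 lower, where 24.7% of all genes had one, and DESeq2 called none of the 10 a DEG. Libraries did not overlap for 9 of the 10 genes in the LPS- columns, all but Ticam1, beside 54.2% of all genes, and for 9 in the LPS+ columns, all but Irak4, beside 67.3%.

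The interaction asks whether the difference between the tlr4f/f-lysM-cre and tlr4f/f columns was larger or smaller in the LPS+ than in the LPS- libraries, and equally, when exchanged, whether LPS acted differently in the 2 genotypes. None of the 10 genes was a DEG in it, where 1.04% of all genes were. Those 164 genes fell to between 10 and 21 without any 1 of the LPS+ libraries and numbered 644 with DESeq2. At an adjusted p below 0.05, where 6.99% of all genes passed, 4.32% higher and 2.66% lower, Myd88 and Irak1 passed. The Myd88 interaction was -0.68 ± 0.167 (log2, adjusted p = 0.0355), since the rise of Myd88 was smaller in the LPS+ columns. The Irak1 interaction was 0.49 ± 0.115 (adjusted p = 0.0314), since the fall of Irak1 was smaller there. Leaving out any of the 6 LPS+ libraries, the first of LPS- tlr4f/f or, for Myd88, the second and, for Irak1, the first of LPS- tlr4f/f-lysM-cre gave an adjusted p between 0.0520 and 0.104 for Myd88 and between 0.0506 and 0.101 for Irak1, while the estimates stayed between -0.73 and -0.63 for Myd88 and between 0.46 and 0.50 for Irak1. Irak2 gave -0.87 ± 0.244 and did not pass (adjusted p = 0.0573, and 0.0111 without the third LPS- tlr4f/f-lysM-cre library), and Ticam2 gave -0.98 ± 0.406 (adjusted p = 0.174, and 0.0192 without the first). When exchanged, these values read as a smaller rise of Myd88 and a smaller fall of Irak1 under LPS in tlr4f/f-lysM-cre than in tlr4f/f BMDMs.

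**Figure D4:**
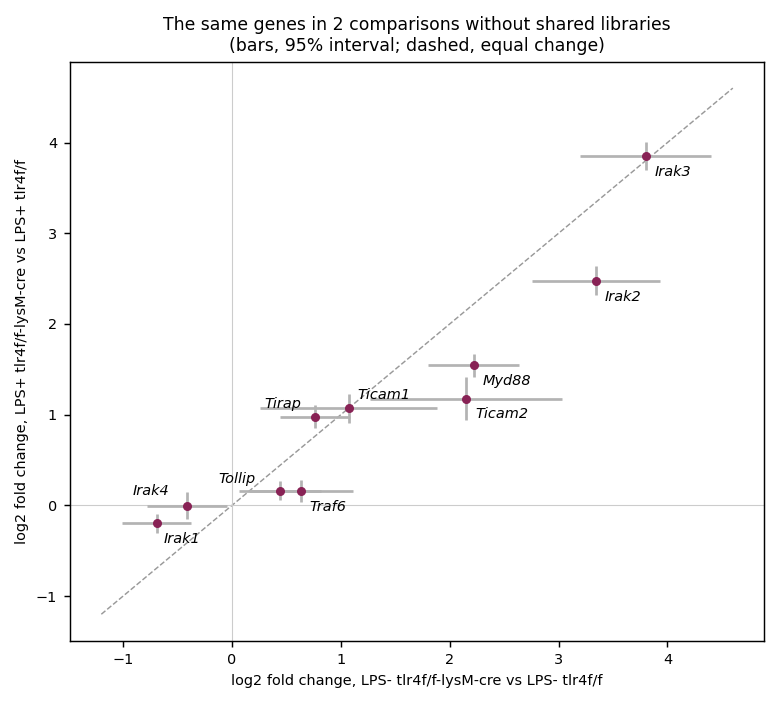
Log2 fold change of each gene in the LPS- columns (horizontal) and in the LPS+ columns (vertical), with 95% intervals and a dashed line of equal change. Irak3, Ticam1 and Tirap lie near the line, while Ticam2 (2.15 and 1.18), Irak2 (3.34 and 2.48) and Myd88 (2.22 and 1.54) lie below it.

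For 9 of the 10 genes the gene outside the set with the most similar profile was named by Pearson's r of log2 CPM over the 12 libraries among 15775 genes. The libraries fall into groups, so r mainly reflects the 4 group levels and is given as a description. Myd88 ran with Il15 (r = 0.999), Irak2 with Stard5 (0.996), Irak3 with Nampt (0.997), Ticam2 with Wdr37 (0.995) and Ticam1 with Mapre2 (0.983). Irak1 was most like Slc17a9 (0.977), Tollip most like Cstb (0.977), Traf6 most like Stx6 (0.938) and Irak4 most like Dis3l (0.930). Within the set, Myd88 and Irak2 had the highest r (0.985), and Irak1 and Tollip the most negative (-0.946).

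The genes around these adaptors and kinases were counted in 3 lists. Of the receptors that use them, 18 of 22 were tested in the contrast of the LPS- columns, and 5 were DEGs higher and 2 lower, beside 9.25% of all genes higher and 17.1% in either direction. Those higher were the TLR genes Tlr1 (log2 fold change 3.42), Tlr2 (3.37), Tlr3 (3.85) and Tlr6 (2.14) and the interleukin-1 receptor subunit Il1rap (1.23). Sigirr, an inhibitory receptor of this family, was the DEG with the lowest fitted value (-4.31 ± 0.854, adjusted p = 0.00966), which depends on the prior count of the fit, since LPS- tlr4f/f-lysM-cre held 0 to 3 counts per library against 54 to 65 in LPS- tlr4f/f. In the LPS+ columns 9 of 18 receptors were DEGs higher and 3 lower, beside 10.8% of all genes higher and 21.7% in either direction, led by Tlr2 (4.47 ± 0.0760, adjusted p = 7.76e-13), which senses bacterial lipoproteins. The median log2 fold change of the receptors was 0.81 in the LPS- and 0.99 in the LPS+ columns.

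Of 20 kinases and ubiquitin enzymes downstream of the IRAKs and TRAF6, 8 were DEGs higher and 1 lower in the LPS- columns, where 9.25% of all genes were DEGs higher, with Map3k8, the kinase upstream of ERK in this pathway, the largest (3.28 ± 0.199, adjusted p = 0.000410). In the LPS+ columns 6 were DEGs higher and none lower, where 10.8% of all genes were DEGs higher, with Ikbke, a kinase of the interferon branch, the largest (2.60 ± 0.0574, adjusted p = 3.65e-12). Their medians were 0.59 and 0.34. Of 20 regulators of the adaptors, IRAKs and TRAF6, 8 were DEGs higher and 3 lower in the LPS- columns and 9 higher and 2 lower in the LPS+ columns, where 9.25% and 10.8% of all genes were DEGs higher and 1143 of 14635 and 1589 of 14540 genes were DEGs lower. Socs1, a suppressor of cytokine signalling, was the largest in both (5.95 ± 0.466, adjusted p = 0.000654, and 5.54 ± 0.198, adjusted p = 7.00e-08). The medians of the regulators were 0.63 and 0.57.

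In the tlr4f/f columns no gene of the 3 lists was a DEG. In the tlr4f/f-lysM-cre columns, where 6.08% of all genes were DEGs, and 4 to 15 genes in all without any 1 of the LPS+ libraries, 1 receptor was a DEG higher and 2 lower of 17 tested, with Il1rl1, the receptor of interleukin-33, the largest (2.88 ± 0.476, adjusted p = 0.00811). There 1 downstream gene of 20, Rnf31 of the linear ubiquitin ligase, was a DEG lower (-1.28 ± 0.194, adjusted p = 0.00643). Of 19 regulators 3 were DEGs lower, with Tnfaip3, which removes ubiquitin from TRAF6, the largest (-2.12 ± 0.146, adjusted p = 0.000960). In the interaction, where 1.04% of all genes were DEGs and 10 to 21 genes in all without any 1 of the LPS+ libraries, the DEGs were Tlr3 among 18 receptors tested (-1.54 ± 0.147, adjusted p = 0.00135) and 2 of 20 regulators, both lower. The larger change of these regulators was that of Peli1, a ligase that acts on IRAKs (-1.66 ± 0.183, adjusted p = 0.00183).

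**Figure D5:**
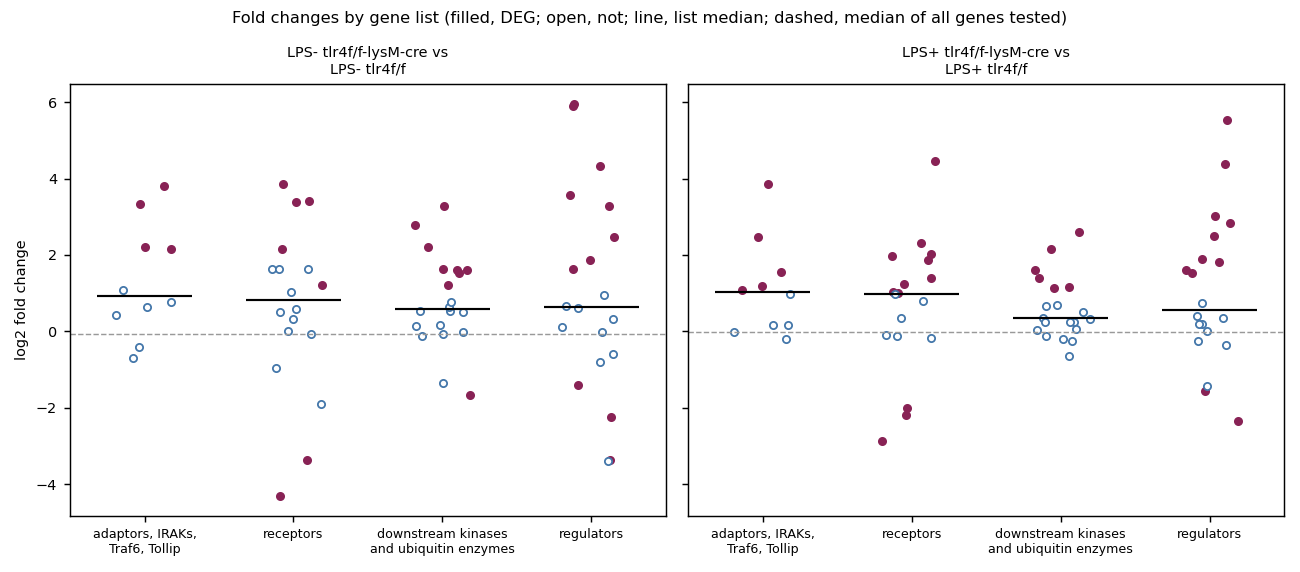
Log2 fold change of the 10 genes and of the genes tested in the 3 lists, in the contrasts of the LPS- columns (left) and the LPS+ columns (right). Filled points are DEGs, solid lines are list medians, and the dashed line is the median of all genes tested. The medians of the 10 genes are 0.92 and 1.02.

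Markers of other cell types moved with some of these groups, and their part in the results was not tested. All 8 macrophage markers were found, and their summed level was 13763 to 29499 CPM in LPS- tlr4f/f, 17890 to 21364 in LPS- tlr4f/f-lysM-cre, 4417 to 4682 in LPS+ tlr4f/f and 7801 to 8025 in LPS+ tlr4f/f-lysM-cre. Lyz2 is among them, with mean CPM of 13106 in LPS- tlr4f/f, 7587 in LPS- tlr4f/f-lysM-cre, 11.8 in LPS+ tlr4f/f and 62.3 in LPS+ tlr4f/f-lysM-cre. It thus made up much of the LPS- sums and little of the LPS+ sums. The 6 fibroblast and stroma markers summed to 10.5 to 673 CPM in LPS- tlr4f/f and 137 to 1464 CPM in LPS- tlr4f/f-lysM-cre, beside 22.0 to 26.9 and 31.4 to 45.9 CPM in the LPS+ groups. The 8 neutrophil markers summed to 0.635 to 13.7 CPM in LPS- tlr4f/f and 15.0 to 192 CPM in LPS- tlr4f/f-lysM-cre, beside 4.59 to 6.76 and 5.59 to 7.67 CPM in the LPS+ groups, and Ly6g was at 0 in all groups but LPS- tlr4f/f-lysM-cre. The 5 dendritic cell markers summed to 0.262 to 0.941 CPM in LPS- tlr4f/f and 5.004 to 13.2 CPM in LPS- tlr4f/f-lysM-cre, beside 0.482 to 1.10 and 3.23 to 3.84 CPM in the LPS+ groups, so they were higher without overlap in both tlr4f/f-lysM-cre columns. Of these 5 markers 2 were tested in the LPS- columns, with 1 DEG higher, and 4 in the LPS+ columns, with 2 DEGs higher. Of all genes 9.25% and 10.8% were DEGs higher there. Xcr1 was a DEG in both contrasts, with 0.0187 to 0.239 CPM in LPS- tlr4f/f and 2.63 to 5.48 CPM in LPS- tlr4f/f-lysM-cre, and 0.0688 to 0.314 and 2.07 to 2.71 CPM in the LPS+ groups. Those of mast cells and basophils, lymphocytes and erythroid cells reached at most 3.70 CPM in sum.

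Reads in exons shared with a neighbouring gene can be counted for either gene, since the library kit does not mark the strand. Beside Ticam2, the largest share was in Myd88, with 290 bases or 11.3% of its exons opposite Acaa1a. Acaa1a differed by 0.62 ± 0.404 in the LPS- columns (adjusted p = 0.268) and by 0.91 ± 0.0795 in the LPS+ columns (adjusted p = 1.82e-06), less than Myd88 in each. The other shares were 9.05% for Tirap with Gm39318, 7.87% for Irak4 with Twf1, 5.22% for Irak3 with Tmbim4 and 4.44% for Irak2 with Gm43963, and at most 1.51% for Irak1 with 2 miRNA genes, Irak3 with Gm47009 and Tirap with Srpr. Tmbim4 differed by 1.06 ± 0.146 in the LPS- and 0.96 ± 0.0575 in the LPS+ columns, Twf1 by 0.59 ± 0.312 and 0.66 ± 0.0470, and Srpr by 1.02 ± 0.196 and 0.69 ± 0.0498. For the 7 genes with several transcript rows, the rows of a gene gave log2 ratios within 0.14 of each other in every contrast.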

How the data were processed

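RNA of 12 BMDM libraries was measured by paired-end sequencing, which the study calls poly-A sequencing, while the labels also name removal of rRNA. Per the labels, the authors used Trimmomatic 0.36 and FastQC on the reads, HISAT2 to align them to mm10 and HTSeq to count them. The deposited values are whole-number read counts for 115140 transcripts without normalization. Reads carry no molecular identifiers, so PCR copies count as separate reads. Ensembl IDs were matched to symbols (8759 of 8805), and for each of 43131 genes the transcript with the highest total was taken.

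In R 4.3.3, low genes were filtered with filterByExpr of edgeR 4.0.16, libraries were scaled by TMM, and a robust quasi-likelihood test was run with Benjamini-Hochberg adjustment over all genes tested. Each contrast was fitted on its 6 libraries and the interaction on 12. CPM per kilobase used the deposited transcript length. The tests were also run on simulated data, and the outcome is not reported here. The members and lists were chosen with earlier results of these data known. Named are the 10 members, Tlr4, Lyz2 and Il1b as a check of the headings, the gene most like each member (not reported here for 1 member), and the largest DEG of each list in each contrast. The other receptors named for the LPS- columns were added after their values were seen. Positions are from GENCODE M21 on GRCm38, the build of mm10.

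Alternatives were DESeq2 1.42.0, limma 3.58.1 voom with sample weights, RLE size factors, 2 other filters on low counts, an adjusted p below 0.05, the sum over transcripts, a block for the replicate number, a fit on all 12 libraries at once, each library left out, and the 2 headings exchanged. The kidney and flow cytometry experiments were not analysed here.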

Additional observations from a re-analysis of the deposited data

Results flagged for a closer look

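The interaction of genotype and LPS, tested over all 12 libraries with edgeR, passed an adjusted p of 0.05 for 2 of the 10 genes, and neither was a DEG in it. For Myd88 it was -0.68 on the log2 scale (95% interval -1.05 to -0.31, adjusted p = 0.0355), with an adjusted p between 0.000527 and 0.104 over the 19 alternatives. All 3 LPS- tlr4f/f-lysM-cre libraries, at 356 CPM or more, lay above the 3 LPS+ tlr4f/f-lysM-cre libraries, at 225 CPM or less, while the 2 tlr4f/f groups overlapped. For Irak1 it was 0.49 (95% interval 0.24 to 0.74, adjusted p = 0.0314), with an adjusted p between 0.00560 and 0.101. The share of all genes that passed was 6.99%. The exchange of headings leaves both values as they are.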

How the results depend on the processing

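Precision was limited by 3 libraries per group and by the wide spread of the LPS- groups. Apart from the exchange of headings and the looser p threshold, 750 refits of the 50 fold changes left 706 on the same side of the criteria and in the same direction, 7 lost and 4 gained a call, and 33 turned sign. No DEG turned sign in them. With the headings exchanged, the number of DEGs among the 10 genes went from 0 to 4 for LPS in tlr4f/f, from 0 to 5 for LPS in tlr4f/f-lysM-cre, from 4 to 0 for the genotypes without LPS and from 5 to 0 with LPS. Over all genes tested the DEGs went, in the same order, from 0 to 2497, from 865 to 3161, from 2497 to 0 and from 3161 to 865. The adjusted p below 0.05 gave 2 for LPS in tlr4f/f-lysM-cre, 8 and 9 for the genotypes without and with LPS, and 2 for the interaction. Of all genes tested, 26.7%, 37.3%, 61.4% and 6.99% passed it, in the same order. A single fit on all 12 libraries left 3 genes for the genotypes with LPS, without Ticam1 (1.08, adjusted p = 0.0113) and Ticam2 (1.18, adjusted p = 0.01), and the cause was not tested. Leaving out single libraries gave 0 to 1 for LPS in tlr4f/f-lysM-cre, 3 to 4 for the genotypes without LPS and 5 to 6 with LPS. DESeq2, voom, RLE factors, the filters and the sum over transcripts gave 4 or 5 and 5 for the last pair. For the genotypes without LPS, deviations of same-numbered libraries had r = 0.47, 0.34 and 0.01 for replicates 1, 2 and 3. In the other contrasts r lay between -0.04 and 0.19. Since r differed between replicate numbers and contrasts, it does not settle whether the replicate numbers pair the libraries. The replicate block gave 0 DEGs among the 10 for LPS in either genotype, 4 and 5 for the genotypes without and with LPS and 0 for the interaction, as without it, while all DEGs went from 865 to 212 for LPS in tlr4f/f-lysM-cre. Without single libraries all DEGs there numbered 4 to 15 for the 3 LPS+ and 935 to 1178 for the 3 LPS- libraries, and DESeq2 gave 2002. For the genotypes without LPS all 2497 DEGs became 1038 to 1682 without single libraries. In the interaction all 164 DEGs became 10 to 21 without an LPS+ library, 99 to 306 without an LPS- one and 644 with DESeq2. For LPS in tlr4f/f, 0 DEGs among all genes became 464 with DESeq2, 54 with voom, 74 in the single fit, 34 without a filter and 6 and 184 without the second and without the third LPS- library. RLE factors moved the genes by -0.0893 to 0.0861.

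On the log2 scale and with the headings exchanged, the values that turned sign or changed their call were as follows. LPS in tlr4f/f gave 2.22 for Myd88, 1.07 for Ticam1, 2.15 for Ticam2, 3.34 for Irak2 and 3.80 for Irak3, of which Ticam1 was no DEG. LPS in tlr4f/f-lysM-cre then gave 1.54 for Myd88, 1.07 for Ticam1, 1.18 for Ticam2, -0.20 for Irak1, 2.48 for Irak2, 3.85 for Irak3, -0.0027 for Irak4, 0.16 for Traf6 and 0.16 for Tollip. The genotypes without LPS then gave -0.12 for Myd88, -0.16 for Ticam1, 0.64 for Ticam2, 0.015 for Irak2 and -0.56 for Irak3. The genotypes with LPS then gave -0.82 for Myd88, -0.17 for Ticam1, -0.35 for Ticam2, 0.10 for Irak1, -0.87 for Irak2, -0.52 for Irak3, 0.047 for Irak4, -0.27 for Traf6 and -0.019 for Tollip.

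The other reversals were of small changes. For LPS in tlr4f/f the single fit gave -0.022 for Tirap and -0.011 for Irak2, and single omissions ranged from -0.014 to 0.039 for Tirap, from -0.092 to 0.078 for Irak2 and from -0.27 to 0.093 for Ticam1. For LPS in tlr4f/f-lysM-cre no filter gave 0.0036 for Tollip, and omissions ranged from -0.064 to 0.0053 for Tollip, from -0.072 to 0.10 for Irak4 and from -0.47 to 0.096 for Ticam1. For Irak4 and the genotypes with LPS, DESeq2 gave 0.011, voom 0.0085, RLE factors 0.011, the single fit 0.0030 and omissions -0.056 to 0.045. In the interaction, Irak3 was -0.034 with DESeq2 and -0.034 with RLE factors and ranged from -0.12 to 0.17 with omissions. There Ticam1 was 0.10 with voom, 0.011 without a filter and 0.016 with the replicate block, and ranged from -0.30 to 0.27 with omissions.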
